A study of Homo sapiens with 51 samples.

Results

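Undifferentiated human embryonic stem cells of a knockout line, labelled KO, were compared with WT cells at day 0, before any differentiation treatment. All 4 day 0 libraries of these lines were taken, of 51 libraries in the series, and all 100584 regions of the day 0 count table were considered. H1 is an established human line of such cells, here kept in mTeSR Plus medium on a coated surface. The assay was ATAC-seq, which reads out open chromatin from the places where the transposase Tn5 could cut and tag DNA. Each line had 2 libraries, lettered a and b: KO, another edited line labelled DATG in sample names (ΔATG in the study's text), and WT. The DATG libraries were kept for the estimate of spread and for values set side by side. The study is about an RNA that acts in several ways during human embryonic development. Its labels do not name the edited gene or say whether a line is 1 clone, so the edit could not be checked at a named gene. Nor do they tie replicates to separate cultures, so a p-value here reflects the spread between libraries, which may be technical.

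The genome's accessible regions include promoters, where transcription starts, and distal elements such as enhancers. Promoters of widely used genes are usually open in every cell type, while distal elements differ more between cell types. Zinc-finger (ZNF) genes form the largest family of human DNA-binding factors, and many lie in clusters on chromosome 19. Many of their proteins carry a KRAB domain, through which they recruit the corepressor TRIM28 and the histone methyltransferase SETDB1 to repeated DNA. Imprinted genes, such as MCTS2, are expressed from the copy inherited from a single parent and carry parent-specific DNA methylation.

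Promoters where the largest losses and the largest promoter gain lay are given here, since the called regions cover or adjoin them. Each runs over 300 bases of RefSeq GRCh38.p14, from 250 bases before to 50 after the gene start, 5′ to 3′ on the gene's strand, with CG pairs in capitals. The first 5 belonged to regions that fell in KO cells and GPR50 to one that rose.
ZNF667 (minus strand, chr19:56477296-56477595): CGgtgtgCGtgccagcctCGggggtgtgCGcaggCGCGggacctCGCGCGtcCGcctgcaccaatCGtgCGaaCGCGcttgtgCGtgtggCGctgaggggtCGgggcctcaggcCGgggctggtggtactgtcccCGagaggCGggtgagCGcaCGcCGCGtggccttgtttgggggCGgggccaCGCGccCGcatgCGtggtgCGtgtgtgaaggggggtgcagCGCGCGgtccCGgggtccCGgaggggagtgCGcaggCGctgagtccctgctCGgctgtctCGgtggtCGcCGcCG
ZNF354C (plus strand, chr5:179060123-179060422): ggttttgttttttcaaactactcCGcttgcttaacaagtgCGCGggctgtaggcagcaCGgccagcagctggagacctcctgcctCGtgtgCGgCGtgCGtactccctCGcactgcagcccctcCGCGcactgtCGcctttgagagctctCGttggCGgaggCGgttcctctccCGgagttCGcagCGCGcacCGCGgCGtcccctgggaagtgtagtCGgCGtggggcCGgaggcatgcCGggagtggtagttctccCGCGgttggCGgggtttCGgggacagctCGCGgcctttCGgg
ZNF585A (minus strand, chr19:37172646-37172945): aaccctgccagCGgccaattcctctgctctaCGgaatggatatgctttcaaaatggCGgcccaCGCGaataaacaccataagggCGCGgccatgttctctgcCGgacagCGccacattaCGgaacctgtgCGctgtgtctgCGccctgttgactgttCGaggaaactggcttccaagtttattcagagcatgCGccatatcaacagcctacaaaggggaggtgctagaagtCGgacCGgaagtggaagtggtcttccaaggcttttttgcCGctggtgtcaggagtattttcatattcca
ZNF585B (minus strand, chr19:37210487-37210786): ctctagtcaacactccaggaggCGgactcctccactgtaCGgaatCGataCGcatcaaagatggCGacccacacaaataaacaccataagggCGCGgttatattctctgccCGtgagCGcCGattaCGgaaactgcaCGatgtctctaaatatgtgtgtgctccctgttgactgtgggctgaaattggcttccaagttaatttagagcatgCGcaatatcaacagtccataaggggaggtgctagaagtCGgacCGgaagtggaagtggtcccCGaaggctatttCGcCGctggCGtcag
MCTS2 (plus strand, chr20:31547129-31547428): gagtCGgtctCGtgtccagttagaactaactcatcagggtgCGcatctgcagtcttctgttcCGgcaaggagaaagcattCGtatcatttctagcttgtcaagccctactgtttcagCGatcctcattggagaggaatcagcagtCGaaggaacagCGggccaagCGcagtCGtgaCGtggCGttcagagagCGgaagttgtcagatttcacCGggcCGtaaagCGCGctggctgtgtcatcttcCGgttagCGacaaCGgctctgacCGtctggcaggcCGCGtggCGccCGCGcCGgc
GPR50 (plus strand, chrX:151176334-151176633): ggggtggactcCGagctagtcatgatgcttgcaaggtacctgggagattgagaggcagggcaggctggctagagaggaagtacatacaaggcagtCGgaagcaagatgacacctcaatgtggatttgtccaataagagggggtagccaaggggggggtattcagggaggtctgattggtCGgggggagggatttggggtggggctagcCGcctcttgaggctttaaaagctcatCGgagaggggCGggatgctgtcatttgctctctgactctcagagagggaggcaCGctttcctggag

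Those promoters ranged from rich to poor in CG pairs. ZNF667 held 42 of them, more than 91.2% of the 20898 listed promoters whose gene start had a tested region within 1 kb. GPR50 held 7, more than 14.7% of those promoters. ZNF585A and ZNF585B are neighbouring paralogs whose promoters were 82.9% identical over 280 aligned bases. How the counting placed reads in such similar sequence is not given in the sources used here, so the split between the pair is uncertain. Motifs were searched on both strands. Of the 8 listed promoters of genes whose start region fell, GGGCGG, the letters of a GC box, occurred in 2, CCAAT in 5 and CGGAAG in 4. Both ZNF585A and ZNF585B count among those with CCAAT and CGGAAG, though their sequences are similar. Of the 10 listed promoters of genes whose start region rose, GGGCGG occurred in 10, CCAAT in 3 and CGGAAG in 2. Windows of IGSF8, RGS7, SLC2A14 and STIM2 shared no base with the called region, so their letters do not describe it. Among the 20898 promoters the shares were 62.9%, 33.1% and 25.5% in the same order of motifs. The median promoter held 25 CG pairs among those that fell, 32.5 among those that rose and 24 in the background. These matches describe the letters of the windows and no site.

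Total counts were 6634482 and 4616521 in the KO libraries, 7516259 and 6462301 in the DATG libraries and 7469878 and 5461753 in the WT libraries. KO replicate b was the shallowest library. The pluripotency genes were open in the cells as labelled: regions linked to SOX2 summed to 154 and 161 CPM (counts scaled to library size) in KO and 147 and 169 CPM in WT, and those linked to NANOG to 24.5 and 29.5 CPM in KO and 25.3 and 24.4 CPM in WT. Both genes were picked as defining markers and not by their change. In edgeR's quasi-likelihood F test with Benjamini-Hochberg adjustment, 86 of 100582 tested regions (0.0855%) had an adjusted p under 0.05. These are the called regions. Of them, 54 were higher in KO (0.0537% of tested) and 32 were lower (0.0318%). Without adjustment, 8351 regions had p under 0.05, 4360 of them higher and 3991 lower. Leaving out KO replicate a or WT replicate a gave 41 calls each, and leaving out WT replicate b gave 183. In simulated day 0 regions the same test recovered 2% of changes of 0.5 on the log2 scale, 66% of changes of 1 and 96% of changes of 2, so small changes at single regions were mostly not detectable at this depth.

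**Figure D1:**
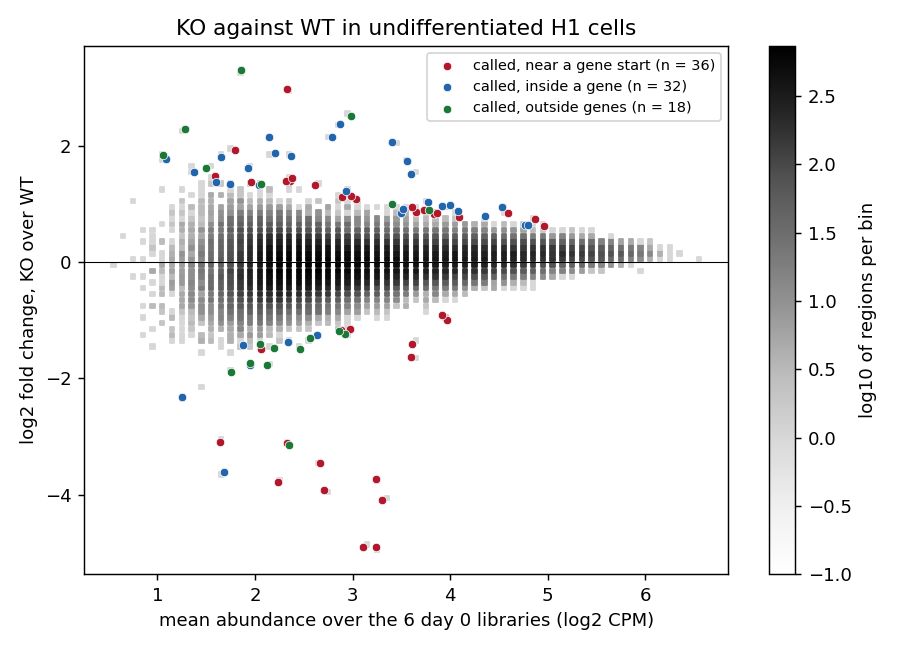
Log2 fold change of KO over WT (vertical axis) against the mean abundance of a region over the 6 day 0 libraries (horizontal axis, log2 CPM). Grey squares show the number of tested regions per bin, and coloured points show the 86 called regions by place. Called losses reach -4.90 and called gains 3.30, and losses beyond -3 stand apart from the grey cloud.

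Losses and gains were sorted by place. A region was placed near a gene start when its edge lay within 1 kb of one, otherwise inside a gene or outside genes. For genes with no listed start, either gene end was used, so the near-start class includes some gene ends. Losses placed this way were those at ZNF471, LOC124903913 and LOC124909408. Gains placed this way were those at LRRC14, EIF3A, TPTEP2-CSNK1E, BAP1, PLAG1 and LOC101928782. Of the 32 losses, 16 lay near a gene start, 6 inside a gene and 10 outside genes. Of the 54 gains, 20 lay near a gene start, 26 inside a gene and 8 outside genes. Near gene starts lay 50% of losses (exact binomial 95% interval 31.9 to 68.1%), 37.0% of gains (24.3 to 51.3%) and 38.1% of all tested regions. Inside genes lay 18.8% of losses (7.21 to 36.4%), 48.1% of gains (34.3 to 62.2%) and 38.1% of tested regions. Of the gains, 10 lay in 3 clusters, all inside genes, and so were not independent. In all 86 called regions the 2 lines did not overlap, beside 18.7% of all tested regions in which both KO libraries lay above both WT libraries and 18.9% in which both lay below. The intervals of losses and gains overlap in every place, which is no test of a difference between them. Inside genes the overlap is slight, and the interval of losses ends below the share of tested regions. Losses and gains were not tested against each other by place. The intervals cover counting error only and take regions as independent.

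Losses had a median log2 change of -1.69 and ran from 0.906 to 4.90 in size, with 11 of 32 beyond 3, 1 between 2 and 3, 18 between 1 and 2 and 2 at or under 1. With 1 library left out in turn, the median loss ran from -3.68, without KO replicate a, to -1.46, each over the regions then called. Gains had a median of 1.33 and ran from 0.617 to 3.30, with 1 of 54 beyond 3, 7 between 2 and 3, 26 between 1 and 2 and 20 at or under 1. Near gene starts the median was -3.10 for losses and 1.11 for gains. Outside genes the medians were -1.48 for losses and 1.73 for gains, so by median the gains were largest away from genes and the losses largest at starts. The median lost region had 1.94 CPM in KO and 6.99 CPM in WT, and the median gained region 12.5 CPM in KO and 4.94 CPM in WT. These sizes were selected by the test: with the regions cut into 5 classes of abundance, the smallest called gain was 0.617 in the most abundant class and 1.32 in the least abundant. Just inside the threshold lay LINC03126 at 0.86 (adjusted p = 0.0468), a non-coding gene. Just outside lay a region near POLR3E, an RNA polymerase III subunit, at 0.87 (adjusted p = 0.0501).

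**Figure D2:**
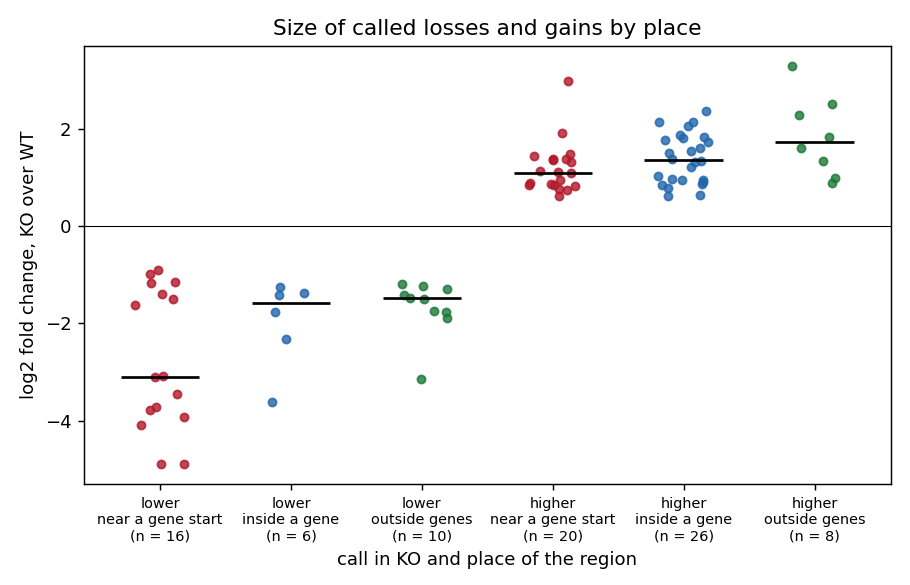
Log2 fold change of KO over WT (vertical axis) of the 86 called regions, split by direction and place (horizontal axis). Each point is a region and each line a median. Losses near gene starts form 2 groups, 9 beyond -3 and 7 between -0.91 and -1.63.

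The 11 losses beyond 3 were near-complete. In these regions the KO libraries held 1 to 6 counts, or 0.217 to 1.30 CPM, against 3.23 to 14 CPM in WT. The pooled KO level was 3.18 to 11.5% of WT over the 11 regions, and the highest upper bound of its exact 95% counting interval was 24.4%. In the other 21 losses the KO mean was 20.7 to 52.7% of the WT mean. Of the 11, 9 lay near a gene start, 1 inside a gene and 1 outside genes.

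ZNF667, a zinc-finger gene on chromosome 19, had the largest loss. Its start region, 93 bp from the start (GRCh38 chr19:56477438-56477638), held 0.611 and 0.217 CPM in KO and 13.9 and 14 CPM in WT. The KO level was 3.21% of WT (counting interval 1.03 to 7.64%), and the log2 change was -4.90 ± 0.39 (SE, edgeR adjusted p = 1.59e-20). A further region over the start of its antisense gene ZNF667-AS1 held 0.611 and 1.30 CPM in KO and 13.5 and 10.6 CPM in WT. It changed by -3.73 ± 0.35 and lay 686 bp from the ZNF667 start. ATAC-seq has no strand, so the gene and its antisense partner cannot be told apart there.

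The paralogs ZNF585A and ZNF585B, on the same chromosome, lost their only start region each. ZNF585A (chr19:37172729-37172929) held 0.459 and 0.217 CPM in KO and 13.4 and 8.44 CPM in WT, a change of -4.89 ± 0.44. ZNF585B (chr19:37210582-37210782) held 0.611 and 0.217 CPM in KO and 6.23 and 6.65 CPM in WT, a change of -3.78 ± 0.47. In both genes every KO value lay below every WT value.

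Off chromosome 19, ZNF354C on chromosome 5 (chr5:179060219-179060419) held 0.764 and 0.434 CPM in KO and 10.9 and 11 CPM in WT. Its change was -4.08 ± 0.39. At the start of LOC100128885, a non-coding gene on chromosome 7 whose nearest protein-coding start was that of ZNF680 at 11453 bp, KO had 0.306 and 0.651 CPM and WT 7.69 and 6.29 CPM (-3.92 ± 0.47). The neighbouring LOC124901657 changed by -3.45 ± 0.46. MCTS2 is an imprinted gene inside an intron of HM13 and a retrocopy of MCTS1. Its start (chr20:31547251-31547451) held 0.764 and 0.434 CPM in KO and 6.10 and 4.85 CPM in WT, a change of -3.11 ± 0.45. None of the 22 other tested regions within 50 kb of it was called, and their changes ran from -0.42 to 0.58.

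Losses at the remaining ZNF starts were partial. ZNF835 held 5.5 and 4.34 CPM in KO and 16.6 and 14.4 CPM in WT (-1.63 ± 0.23). ZNF229 held 4.59 and 6.95 CPM in KO and 15.6 and 13.6 CPM in WT (-1.40 ± 0.23). ZNF471 held 7.49 and 9.99 CPM in KO and 19 and 14.7 CPM in WT (-0.99 ± 0.20). Its listed start was missing, so either gene end was used. ZNF678 on chromosome 1 had 2 called start regions, at -1.15 ± 0.27 and -0.91 ± 0.19. All KO values were below all WT values in these genes, at levels above the 1.30 CPM that bounded the 11 near-complete losses. ZNF835 kept its call without each KO or WT library in turn, while ZNF229 lost it without KO replicate a (adjusted p = 0.183) and ZNF471 without KO replicate a (0.482) or WT replicate a (0.531). Both ZNF678 regions lost theirs without KO replicate a or WT replicate a. The first also lost it without WT replicate b and the second without KO replicate b. With 1 library left out in turn, they changed by -1.455 to -0.83 and by -1.071 to -0.792.

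**Figure D3:**
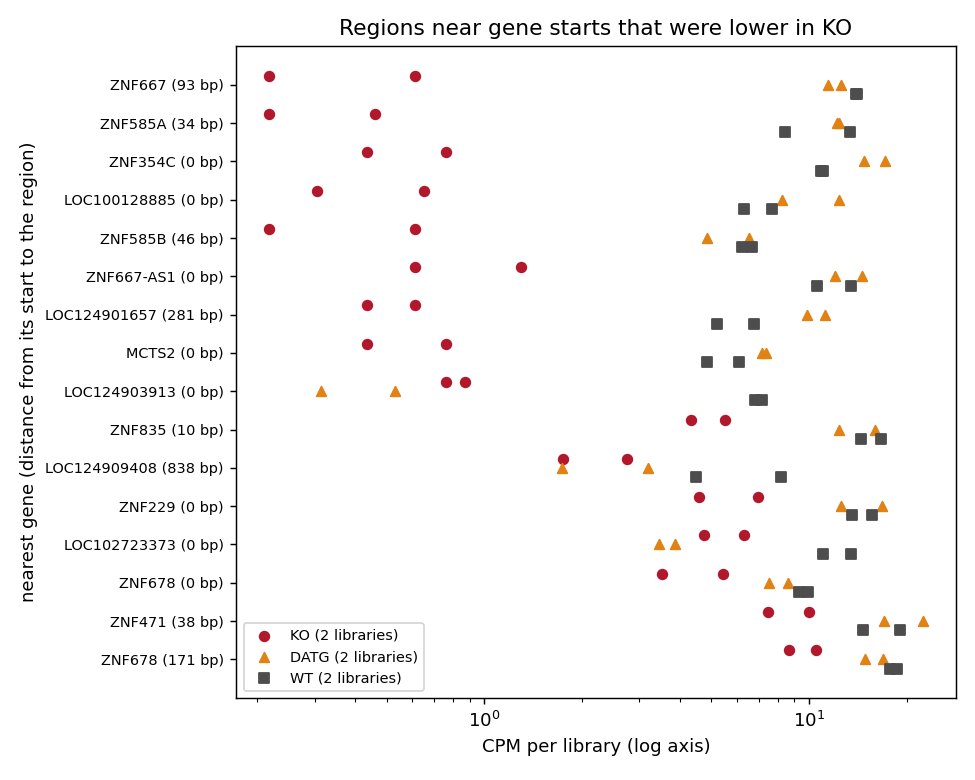
CPM in each day 0 library (horizontal log axis) of the 16 regions near a gene start that were lower in KO, named by nearest gene with its distance. Circles are the 2 KO libraries, triangles the 2 DATG libraries and squares the 2 WT libraries. KO points lie left of WT points in every row, and DATG was also called lower than WT in 3 of the rows, LOC124903913, LOC124909408 and LOC102723373.

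These losses were a small part of the ZNF family. Over all 866 tested regions near the start of 445 ZNF genes, 10 regions of 8 genes fell and 0 rose by edgeR's test, with a median change of 0.081. Of the ZNF start regions, 8.08% were higher and 3.23% lower at an unadjusted p under 0.05, beside 7.19% and 2.26% of regions at other protein-coding starts. On chromosome 19, 7 of 397 ZNF start regions fell, and elsewhere 3 of 469 did. Over the 32649 regions at starts of other protein-coding genes, 15 rose and 1 fell, the MCTS2 region, with a median of 0.064. Where ZNF genes sit side by side, some neighbours fell together, ZNF585A with ZNF585B and ZNF667 with ZNF471, and other neighbours were not called. A second start region of ZNF471 changed by -0.80 and was not called, so uncalled does not mean unchanged. Between or beside ZNF667, ZNF471 and ZNF835 on chromosome 19, start regions of ZNF582 changed by 0.11 and 0.15, those of ZNF583 by 0.11 and 0.14, that of ZNF71 by -0.12 and those of ZNF470 by 0.44 and 0.03, all uncalled. Beside the ZNF585 pair, ZNF383 stood at 0.07 and -0.09 and ZNF420 at -0.14. Beside ZNF229, ZNF112 stood at -0.12 and ZNF235 at 0.10, uncalled too. These neighbours were chosen by position after the losses were known.

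Of the 16 losses away from starts, 2 were beyond 3. A region 9701 bp from GPRC5A, a retinoic acid-induced receptor, held 0.306 and 0.217 CPM in KO, from 3 counts, and 3.71 and 3.23 CPM in WT. Its KO level was 7.67% of WT with a counting interval of 1.53 to 23.9%. A region 349970 bp from FOLH1 on chromosome 11 held 0.917 and 0.217 CPM in KO and 6.10 and 5.21 CPM in WT (-3.15 ± 0.45). An intronic region of MTA3, a component of a histone deacetylase complex, changed by -2.32 ± 0.46. The rest lay between -1.19 and -1.88. They included a region whose nearest start was that of EPHA3, an ephrin receptor gene, at -1.88, a region inside NF2, a tumour suppressor gene, at -1.76, and a region 51584 bp from the start of TGFBI, an extracellular matrix gene, at -1.41. Those named for EPHA3, NF2, TGFBI and MTA3 lost their calls without KO replicate a, and each also without another library. With libraries left out in turn, EPHA3 ran from -1.979 to -1.743 and NF2 from -2.029 to -1.508. TGFBI ran from -1.604 to -1.187 and MTA3 from -2.543 to -2.047. The EPHA3 region lay 2240544 bp from that gene's start, so the name gives a position only.

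The largest gain outside genes lay 30996 bp from RDH8, a retinol dehydrogenase. That region held 8.87 and 9.56 CPM in KO and 1.06 and 0.718 CPM in WT, a change of 3.30 ± 0.35 (edgeR adjusted p = 2.95e-13). Near-start gains were led by GPR50, an X-linked orphan receptor related to melatonin receptors. Its start held 13.1 and 12.4 CPM in KO and 1.59 and 1.62 CPM in WT, a change of 2.98 ± 0.31. Inside genes, a region in STK33, a serine/threonine kinase gene, held 16.2 and 14.6 CPM in KO and 3.18 and 2.69 CPM in WT, a change of 2.37 ± 0.26. In these 3 regions KO and WT values did not overlap, and the calls held without each library in turn.

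Most gains stood alone, and the exception was ABCA7, a lipid transporter gene next to ARHGAP45. Joined over gaps of up to 50 kb, the 54 gains formed 47 loci, and 3 of these held more than 1 gain. The 6 regions from chr19:1045279-1045479 to chr19:1082026-1082226 rose by 0.64 to 2.15. The strongest, inside ABCA7, held 14.7 and 12.2 CPM in KO and 3.45 and 2.51 CPM in WT. A window from position 1030279 to 1097226 was drawn around these 6 gains. Of its 29 tested regions, 23 had a change above 0, and the 6 gains are among them. The 23 that were not called had a median of 0.166 and ran from -0.208 to 0.95, beside a median of 0.056 over all tested regions of chromosome 19. Pairs of gains lay in KIF19, a kinesin gene, at 2.14 and 1.81, and in BCL2L1, which encodes the anti-apoptotic protein BCL-X, at 0.96 and 0.91. The 32 losses formed 27 loci, and the 4 with several losses were those of ZNF667 with ZNF471, the ZNF585 pair, the 2 regions near ZNF680 and ZNF678.

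Other gains outside starts included 2.51 at LOC102724591, 2.29 at a region 46169 bp from MCUR1, a mitochondrial calcium uniporter regulator, 1.87 in MAGI1, a junction scaffold gene, and 1.83 in SLC25A42, a mitochondrial carrier gene. LOC124902054, inside ERICH1, rose by 1.51, with 19.3 and 18.9 CPM in KO and 6.89 and 6.47 CPM in WT.

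The 20 near-start gains lay at genes of unlike function. Those of 1 or more on the log2 scale included LRRC14 (1.45), ADAMTS2, a procollagen protease gene (1.39), EIF3A, a translation initiation factor (1.39), and STIM2, a calcium sensor (1.37). SLC2A14, a glucose transporter with the close paralog SLC2A3, rose by 1.32, and reads may be shared with that copy, so its value is uncertain. The readthrough gene TPTEP2-CSNK1E rose by 1.12 and RGS7, a regulator of G protein signalling, by 1.09. Smaller gains lay at BAP1, a deubiquitinase gene (0.95), OCEL1 (0.89), PIM1, a kinase gene (0.84), BRD10 (0.82), the zinc-finger factor gene PLAG1 (0.77), IGSF8 (0.74) and DOP1B (0.62). PIM1 held 36.5 and 29.5 CPM in KO and 16.7 and 21.0 CPM in WT, and DOP1B 41.1 and 39.3 CPM in KO and 23.7 and 29.3 CPM in WT. PIM1 and DOP1B were thus open in WT too, unlike GPR50. No start was listed for LRRC14, EIF3A, TPTEP2-CSNK1E, BAP1 and PLAG1, so those regions lie at either end of the gene. Each of the named gains in this group lost its call without at least 1 KO or WT library, for example BAP1 without WT replicate a (adjusted p = 0.881) and PIM1 without KO replicate a (adjusted p = 0.345).

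The BMP4 libraries of days 1 to 5 gave a second look at the same regions, in 10 KO and 10 WT libraries that the day 0 calls did not use. BMP4 is a growth factor that drives these cells toward mesoderm. Over its 142083 tested regions, 9.1% were higher and 12.4% lower in KO as the mean of within-day differences. All 16 near-start losses overlapped a BMP4 region by at least 100 bp, and 15 of them were called lower there too, with medians of -3.10 at day 0 and -3.66 under BMP4. At ZNF667, KO libraries had a low of 0.0, a median of 0.485 and a high of 0.929 CPM under BMP4, against 6.69, 8.09 and 10.5 CPM in WT. Of losses elsewhere, 0 of 3 matched losses inside genes and 3 of 8 outside genes were called lower, and 1 in each place was called higher. These shares were not tested against each other.

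Near-start gains split in 2. Of the 20, 6 were called higher under BMP4, with changes of 1.54 to 2.65 there, and 14 were not called, with changes of -0.12 to 0.20. The 6 were GPR50, LOC102723636, LRRC14, SLC2A14, a region by CFLAR (LOC105373836) and LOC101928782. Those 14 were smaller at day 0, with a median of 0.875 against 1.46 for the 6, and lay at more open starts, with a median of 17.1 CPM in KO and 9.21 CPM in WT. None of the 14 was called by DESeq2, without KO replicate a or without WT replicate a. Of the 6, 1 was called by DESeq2, 2 without KO replicate a and 2 without WT replicate a. Inside genes, 16 of 19 matched gains were called higher under BMP4, and outside genes 4 of 6. Gains at ABCA7 and ARHGAP45 changed by 0.25 to 2.21 there, that near RDH8 by 3.11 and that in STK33 by 2.19. In all, 44 of the 72 matched regions were called in the same direction.

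**Figure D4:**
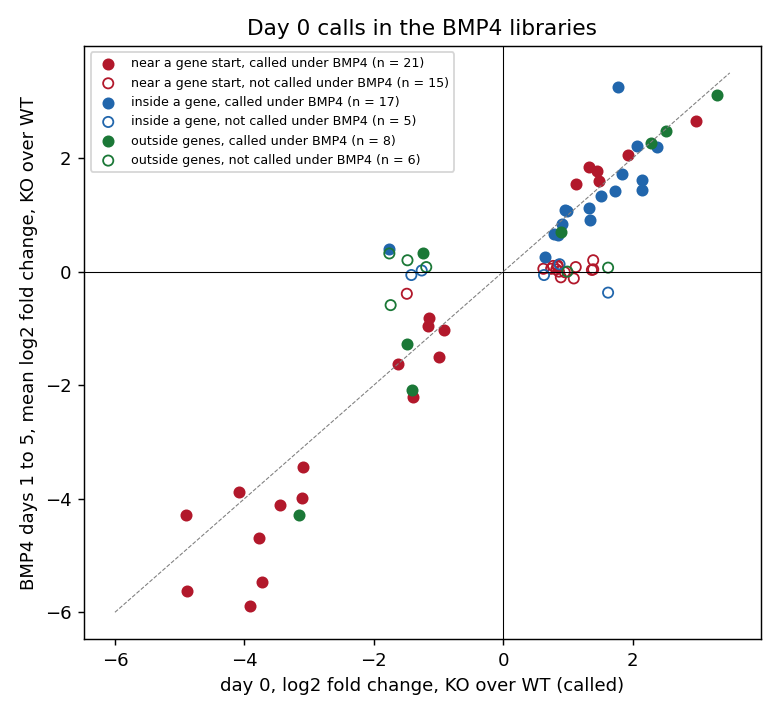
Log2 fold change of KO over WT at day 0 (horizontal axis) and as the mean of BMP4 days 1 to 5 (vertical axis) for the called day 0 regions with a BMP4 region, coloured by place. Filled points were called under BMP4, open points were not, and the dashed line marks equal values. Open points lie near 0 on the vertical axis, and 14 of those near starts are day 0 gains.

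DATG and KO were both set against the same WT libraries at day 0, so their changes are given side by side only. Against WT, 0.0408% of regions were called higher and 0.165% lower in DATG. Of the 32 KO losses, 5 were called lower in DATG, and of the 54 KO gains, 3 were called higher and 1 lower. At LOC124903913, 9838 bp from AURKB, DATG changed by -3.96 and KO by -3.09. At ZNF667, DATG changed by -0.22, with 11.4 and 12.5 CPM, and KO by -4.90. Of the 11 near-complete losses, DATG values lay above both KO values in 10. At GPR50, DATG had 1.20 and 0.627 CPM, on the WT side of the KO values.

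Over all regions, those near starts were shifted up and those away from starts down, each by a small amount. The median change was 0.057 near starts, -0.038 inside genes, -0.045 outside genes and -0.001 over all regions. At an unadjusted p under 0.05, 6.82% of near-start regions were higher and 2.5% lower, and outside genes 2.61% were higher and 5.07% lower. By distance, the median was 0.103 where a region covered a start, 0.012 at over 100 to 500 bp and -0.068 beyond 50 kb. Near-start regions held 50.36 and 50.21% of counts in KO, 49.16 and 48.96% in DATG and 47.74 and 49.21% in WT. The difference of KO minus WT was 1.81 percentage points and, in an exact two-sided permutation test, had p = 0.33, the smallest that 2 against 2 libraries allow. The WT libraries themselves were 1.46 points apart, and the shift moves with abundance, from a median of -0.088 in the least abundant of 5 classes, where 27.4% of regions lay near starts, to 0.093 in the most abundant, where 61.2% did. The part of abundance in it was not tested. With total-count scaling the medians became 0.024 near starts, -0.071 inside genes and -0.078 outside genes. Loess offsets, which scale each library along abundance, gave 0.026 near starts, -0.025 inside genes and -0.031 outside genes. The places thus lay closer together with loess offsets than in the main run, and the order stayed.

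**Figure D5:**
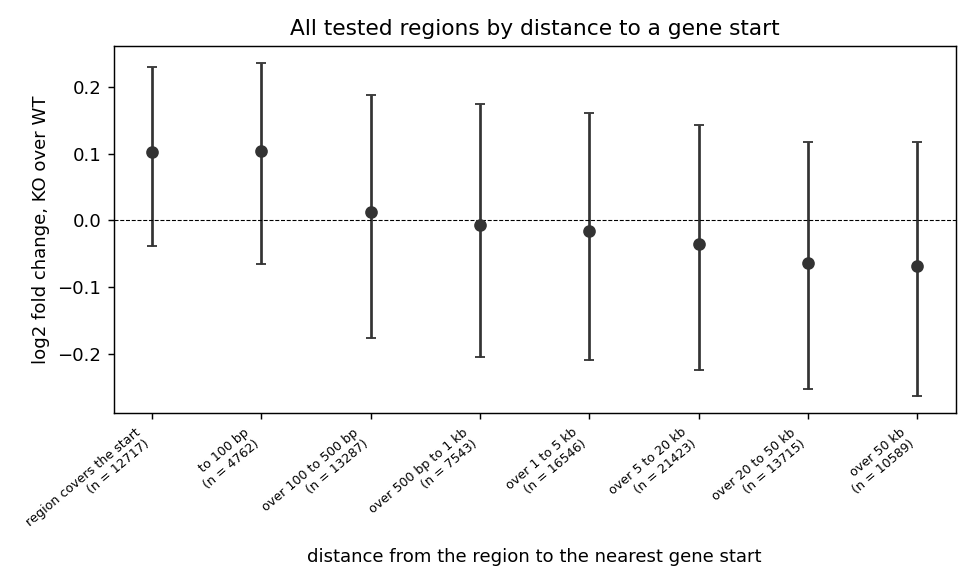
Median log2 fold change of KO over WT (vertical axis) of all tested regions by distance to the nearest gene start (horizontal axis). Points are medians and bars run from the 25th to the 75th percentile of regions, which are not replicates. The median is 0.103 at starts and -0.068 beyond 50 kb, less than the spread of regions in every class.

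Chromosome 19 was the only chromosome of 23 (4.35%) called when counts were summed per chromosome. It held 7.66 and 7.72% of counts in KO, 7.60 and 7.71% in DATG and 7.36 and 7.42% in WT. The change of KO over WT was 0.058 ± 0.009 on the log2 scale (edgeR adjusted p = 0.00315) with chromosome sums scaled to total counts. That fit gave no SE for some chromosomes, such as chromosome 4 at -0.012, so its SEs and p-values are uncertain. With the TMM factors of the regions it was 0.091 (adjusted p = 0.0433). Those factors moved all chromosomes up alike, for example chromosome 1 from -0.006 to 0.027, so the excess of chromosome 19 over the others did not grow. Fitted apart, its near-start regions changed by 0.039 ± 0.018 (adjusted p = 0.425) and its other regions by 0.072 ± 0.012 (adjusted p = 7.63e-05). The chromosome carried 5.97% of tested regions, 25% of losses and 24.1% of gains. Those regions are partly clustered: 6 of its 13 gains lay at ABCA7 and ARHGAP45. Of its 8 losses, 3 lay at ZNF667 with ZNF471 and 2 at the ZNF585 pair. The changed regions were few against its 6000 tested regions, whose median change was 0.056.

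Linked to genes, with counts summed over regions whose nearest start lay within 50 kb, 18 of 27369 genes rose (0.0658%) and 23 fell (0.084%) by edgeR's test. Of 16555 protein-coding genes, 8 rose and 11 fell, and of 10814 long non-coding RNA genes, 10 rose and 12 fell. In the ZNF family, 8 of 458 tested genes fell and 0 rose: ZNF667, ZNF585A, ZNF354C, ZNF585B, ZNF835, ZNF229, ZNF471 and ZNF441. For ZNF667, ZNF585A, ZNF354C, ZNF585B, ZNF835 and ZNF229 the sum held 1 region, already called above. Gene-level calls of those genes are thus not separate support. ZNF441 held 18 and 21.1 CPM in KO and 35.1 and 28.5 CPM in WT, a change of -0.74 ± 0.15. The family's median change was 0.049, beside -0.003 over all genes. ARHGAP45 (0.47 ± 0.06) and ABCA7 (0.41 ± 0.07) rose. KCNN1, a calcium-activated potassium channel gene, held 143 and 149 CPM in KO and 103 and 125 CPM in WT and rose by 0.37 ± 0.08. CT47B1, of a cancer-testis family with near-identical copies, fell by 1.19 on the log2 scale, and its reads may be shared between copies. Without KO replicate a, the adjusted p was 0.104 for ABCA7, 0.191 for ZNF229, 0.214 for ZNF471, 0.496 for ZNF441, 0.151 for KCNN1 and 0.461 for CT47B1. ZNF667, ZNF585A, ZNF585B, ZNF354C, ZNF835 and ARHGAP45 kept their calls without each library.

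Other transcription factor families had 0 called members in either direction. At an unadjusted p under 0.05, 1256 of all 27369 genes were higher and 1179 lower, and of the 16555 protein-coding genes 952 were higher and 499 lower. Beside that background, the 41 tested BTB zinc-finger (ZBTB) genes had 5 higher and 0 lower, the 26 KLF and SP factors 4 higher and 0 lower, the 35 HOX genes 3 higher and 0 lower, the 19 SOX factors 1 higher and 0 lower and the 45 FOX factors 0 higher and 2 lower. Their members with the smallest p included ZBTB7B (0.26 ± 0.07, adjusted p = 0.0797), SP4 (0.27 ± 0.08), SP2 (0.27 ± 0.09), SOX12 (0.31 ± 0.09) and HOXC10 (0.60 ± 0.21). The 35 tested proteasome genes had 6 higher and 0 lower, the 73 cytosolic ribosomal protein genes 7 higher and 1 lower, the 317 solute carriers 12 higher and 14 lower and the 74 olfactory receptors 1 higher and 6 lower, all before adjustment and beside the same background. After adjustment 0 were called in any of these families by edgeR.

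Marker lists of cell types had 0 called genes by edgeR. The 19 tested embryonic stem cell markers summed to 1340 and 1340 CPM in KO and 1360 and 1360 CPM in WT, with a median change of -0.039 and 2 of 19 lower and 0 higher before adjustment, beside 1179 lower and 1256 higher of 27369 genes. Those were POU5F1, the central pluripotency factor gene, with 32.6 and 25.8 CPM in KO and 37.3 and 36.0 CPM in WT (-0.31 ± 0.13, adjusted p = 0.489), and GDF3 (-0.55 ± 0.28). Neuroectoderm markers had a median of 0.011, mesoderm markers 0.013, endoderm markers -0.038, amnion and trophoblast markers -0.014 and fibroblast markers 0.0. Fibroblast markers summed to 373 and 372 CPM in KO and 374 and 378 CPM in WT, and amnion and trophoblast markers to 811 and 855 CPM in KO and 835 and 833 CPM in WT. The member with the smallest p of these lists was CGA, a placental hormone subunit gene, with 1.14 and 1.64 CPM in KO and 3.76 and 3.54 CPM in WT (-1.43 ± 0.41, adjusted p = 0.184). Other members with the smallest p in their lists were ZIC1 (0.24), OTX1 (-0.11), GATA6 (0.16), HAND1 (0.09), APOA1 (-0.33), CER1 (-0.50), KRT7 (0.15), TWIST2 (-0.20) and ZEB1 (0.14), none called.

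Functional lists also had 0 called genes, and the imprinted list did not hold MCTS2. The gene-level sum of MCTS2 (-3.13 ± 0.44) held 1 region, the start region already called, and is not separate support. The 17 genes of epithelial junctions and splicing had a median of 0.092 with 3 higher before adjustment, beside 1256 higher of 27369 genes, led by ESRP1, a splicing regulator (0.27 ± 0.09, adjusted p = 0.307), and TJP3 (0.22 ± 0.08). The 19 p53 targets had a median of 0.077, with BBC3 at 0.17 and FDXR at 0.22. The 19 genes of DNA methylation and KRAB repression had a median of 0.033, with SETDB1 at 0.34 ± 0.12 (39.3 and 45.4 CPM in KO, 32.4 and 34.2 CPM in WT, adjusted p = 0.37) and CBX5, heterochromatin protein 1 alpha, at 0.26 ± 0.09. The 18 imprinted genes had a median of -0.011, with GNAS at 0.11 and PLAGL1 at -0.13. Of the apelin receptor and its ligands, APLN and APLNR were tested, at -0.08 each. In bulk cells, a change in part of the cells and a smaller change in all of them cannot be told apart.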

How the data were processed

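The values were counts deposited by the authors, whole numbers of reads in 201-bp regions that were not normalized, per the file headers. GRCh38 and MACS2, a peak caller, are named in the submitters' processing notes. Not given in the sources used here are the aligner, the peak settings, the handling of duplicates and whether reads were shifted to the Tn5 cut site. Day 0 and BMP4 had separate region sets, so tests stayed within a table, and the SMADi table was not used here. Libraries were taken from their labels.

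Counts were tested with edgeR 4.0.16 in R 4.3.3 (quasi-likelihood F test, TMM scaling, filterByExpr, robust spread, 1 mean per group) over all 6 day 0 libraries, with Benjamini-Hochberg adjustment and a threshold of 0.05. Sums per chromosome were scaled to total counts instead. The filter left 100582 regions. The SE is the absolute log2 fold change over the square root of F. DESeq2 1.42.0, other scalings, no filter, left-out libraries and a replicate block were alternatives. Starts came from RefSeq GRCh38.p14. For 11037 of 38340 genes with no listed start, including 1602 on chromosome 8, either gene end was used. The procedure was tested on simulated counts, with 50 regions changed at each of the sizes 0.5, 1, 2 and 3 on the log2 scale. It made 8 false calls over 100577 regions, to be read beside the changed regions it recovered. All simulated regions shared a single median spread, so regions with a larger spread were not represented. Libraries were amplified by PCR and carry no stated molecular identifiers, so reads may repeat molecules and intervals cover counting error only. Replicates differed by a chi-square per degree of freedom of 1.27 in KO and 1.41 in WT.

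The members and lists were chosen with earlier results of these data known. Regions named were every call within 1 kb of a protein-coding start and, of the rest, the 12 with the smallest p in each direction. Genes named were the called members and the 2 with the smallest p of a list. For gene families the text gives counts, called members and some of the others.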

Additional observations from a re-analysis of the deposited data

How the results depend on the processing

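With 2 libraries per line and 1 to 6 KO counts in the strongest losses, depth limited calls under 1 on the log2 scale. All 11 near-complete losses stayed called under every alternative run except DESeq2, which called 10. DESeq2 called 19 regions (8 higher, 11 lower) and 15 genes (5 higher, 10 lower). The KO and WT libraries alone gave 82 higher regions. Leaving out a library gave 41 to 183 regions (25 to 119 higher, 16 to 64 lower) and 16 to 101 genes (6 to 60 higher, 10 to 41 lower). The low counts came without KO replicate a or WT replicate a and the high ones without WT replicate b. The near-start share of all calls, 41.9%, ran from 31.7 to 58.9%, the last without KO replicate b. The median loss ran from -3.68 to -1.46 and the median gain from 0.998 to 1.86, and with the log2 ratio of mean CPM plus 1 they were -1.27 and 1.07. Total-count, loess and RLE scaling and no filter gave 78, 88, 86 and 88 regions. Chromosome 19 near starts alone changed by 0.039 (adjusted p = 0.425). The splits by scaling, the chromosome split and the use of listed starts only were added after seeing the data.

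Whether the letters of replicates pair libraries is not stated in the labels. The correlation of same-letter deviations over regions was 0.0255 between KO and WT, -0.096 between DATG and WT and -0.117 between KO and DATG. Replicate differences at single regions were above counting noise, with a chi-square per degree of freedom of 1.27 in KO, 1.41 in WT and 1.43 in DATG. Counting noise weakens such correlations, and their signs differ between pairs, so they do not decide on pairing. With the replicate block, 70 regions (42 higher) and 32 genes were called, all 70 among the 86.

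Of the genes named, directions near 0 turned round in these cases, none of them called. Leaving out a library gave -0.279 to 0.206 at APLNR, -0.197 to 0.021 at APLN, -0.87 to 0.176 at CER1 and -0.077 to 0.396 at GATA6. With only regions within 1 kb, PLAGL1 changed by 0.021.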
